A study of Oryza sativa with 7 samples.

Results

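The methylome of IR64 seedlings treated with a 200 mM salt solution (IR64 salinity) was compared with that of IR64 seedlings kept in RO water (IR64 control). IR64 is a rice (*Oryza sativa*) cultivar sensitive to drought and salinity. The assay was whole genome bisulphite sequencing, in which unmethylated cytosines are read as thymine and methylated cytosines (mCs) stay cytosine. The comparison covered all 100 bp bins of the 12 chromosomes that held at least 3 mCs of a sequence context listed in both libraries. There were 1036179 such bins, out of 2273435 bins that held an mC in any of the 7 libraries of the series. The other libraries were IR64 desiccation (seedlings on dry filter paper), Pokkali salinity and Pokkali control (a salinity-tolerant cultivar), and N22 desiccation and N22 control (a drought-tolerant cultivar).

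Each group had 1 library, so the values have no error between replicates, and a difference between IR64 salinity and IR64 control is a difference between 2 libraries. The control DNA was pooled from 3 biological replicates, and for the stressed libraries the pooling was not given. Seedlings were used, so different levels in the same cells and different shares of cell types cannot be told apart. The tables list only cytosines called methylated. A cytosine methylated in one library and unmethylated in the other is therefore in no bin below, and the changes that could be seen were changes of level between sites methylated in both.

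Plants methylate cytosines in 3 contexts, CG, CHG and CHH (H stands for any base but G). MET1 copies CG methylation to the new strand after each replication, and CG sites are symmetric between strands. CHG sites are also symmetric and are kept by CMT3, which is guided by methylation of histone H3. CHH sites have no partner on the opposite strand and are methylated anew by DRM2, guided by small RNAs (RNA-directed DNA methylation), and by CMT2. In rice, CG methylation occurs in gene bodies and transposons, CHG methylation mostly in transposons, and CHH methylation often at short transposons near genes.

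The IR64 salinity library listed 15452595 mCs at a median depth of 10 reads, against 14905754 mCs at a median depth of 12 reads in IR64 control. The libraries shared 6022356 CG, 3485626 CHG and 2165673 CHH cytosines. In CG this was 81.1% of the sites listed in IR64 salinity and 86.9% of those listed in IR64 control, and in CHH it was 61.4% and 59.99%. By the share of CG sites listed in either library, IR64 salinity was nearest to IR64 desiccation (72.8%) and IR64 control (72.3%), and it shared 54.3% to 60.8% with the libraries of the other cultivars. The label of the cultivar thus did not go against the data.

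Over the shared cytosines the pooled levels of the libraries were close. The pooled level is the share of reads that were methylated, in percent, and its 95% Wilson intervals cover counting error only. In CG it was 84.40% in IR64 salinity (84.40 to 84.41) against 83.93% in IR64 control (83.92 to 83.94), a difference of 0.474 points. In CHG it was 63.93% in IR64 salinity against 63.80% in IR64 control, a difference of 0.126 points that turned to -0.0807 points at cytosines with at least 10 reads in both. In CHH it was 37.26% in IR64 salinity against 36.17% in IR64 control, a difference of 1.09 points. Without replicate libraries the size of a usual difference between 2 such libraries is unknown.

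Single bins were then compared by Fisher's exact test (two-sided) on the methylated and unmethylated reads summed over their shared cytosines. A bin was called a differentially methylated region (DMR) at a difference of at least 20 points and a Benjamini-Hochberg adjusted p of at most 0.01. A total of 164 of 818091 CG bins (0.02%) were DMRs, of which 113 were higher (0.0138%) and 51 lower (0.00623%) in IR64 salinity. In CHG, 14 of 510000 bins (0.00275%) were DMRs, 6 higher (0.00118%) and 8 lower (0.00157%). In CHH, 902 of 215784 bins (0.418%) were DMRs, 532 higher (0.247%) and 370 lower (0.171%). The share that was higher was 68.9% in CG (95% Wilson interval 61.5 to 75.5) and 59.0% in CHH (55.7 to 62.1). The DMRs fell in 1078 distinct bins, and only 2 bins were DMRs in more than 1 context, both in CG and CHG and both in the same direction.

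These counts depend on how reads are counted. A read over several cytosines entered the sum of its bin several times, which can make the p-values too small because the summed reads are not separate molecules. When the reads of each bin were divided by its number of shared cytosines, no bin of any context was a DMR by the same Fisher's exact test and adjustment. Of 818091 CG, 510000 CHG and 215784 CHH bins, 136, 48 and 42 had an unadjusted p under 0.05. This division leaves about the mean depth of a bin, in CG a median of 12.25 reads in IR64 salinity and 13.7 in IR64 control. With so few reads hardly any bin can pass the adjustment over all bins, so the count of 0 does not show that no bin differed. Because of the repeated counting of reads, the DMRs are described below as the bins where the summed reads of these libraries differed the most. Counted from every read, 5.44% of CG, 5.27% of CHG and 11.6% of CHH bins had an unadjusted p under 0.05. The share called rose with the number of reads in the library with fewer, in CG to 0.126% of bins with 200 or more reads, against 0.00337% of bins with under 30. In CHH it was 0.984% at 100 to 200 reads and 0.486% at 200 or more, against 0.0278% under 30. The share also rose with the number of shared cytosines, in CG from 0.0116% at 5 to 7 to 0.134% at 13 or more. Among CHH bins with 100 to 200 reads it was 0.318% at 5 to 7 cytosines and 1.48% at 13 or more. Classes compared below at like read numbers are not matched for the number of cytosines.

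The CG DMRs that were higher had a median level of 82.6% in IR64 salinity against 46.3% in IR64 control, and the CG DMRs that were lower had medians of 47.2% in IR64 salinity against 75.9% in IR64 control. The median differences were 30 and -28.4 points. CHH DMRs had medians of 67.7% in IR64 salinity against 38.1% in IR64 control where higher, and 40.3% in IR64 salinity against 67.8% in IR64 control where lower. Changes past 50 points were seen in 12 CG bins (10 higher, 2 lower), 1 CHG bin (lower) and 14 CHH bins (7 higher, 7 lower). Within a DMR the single cytosines mostly moved the same way as the bin, at 93.9% of cytosines in the higher CG DMRs and 91.0% in the higher CHH DMRs. The reads of these cytosines make up the called difference, so like signs are favoured by the call itself.

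**Figure D1:**
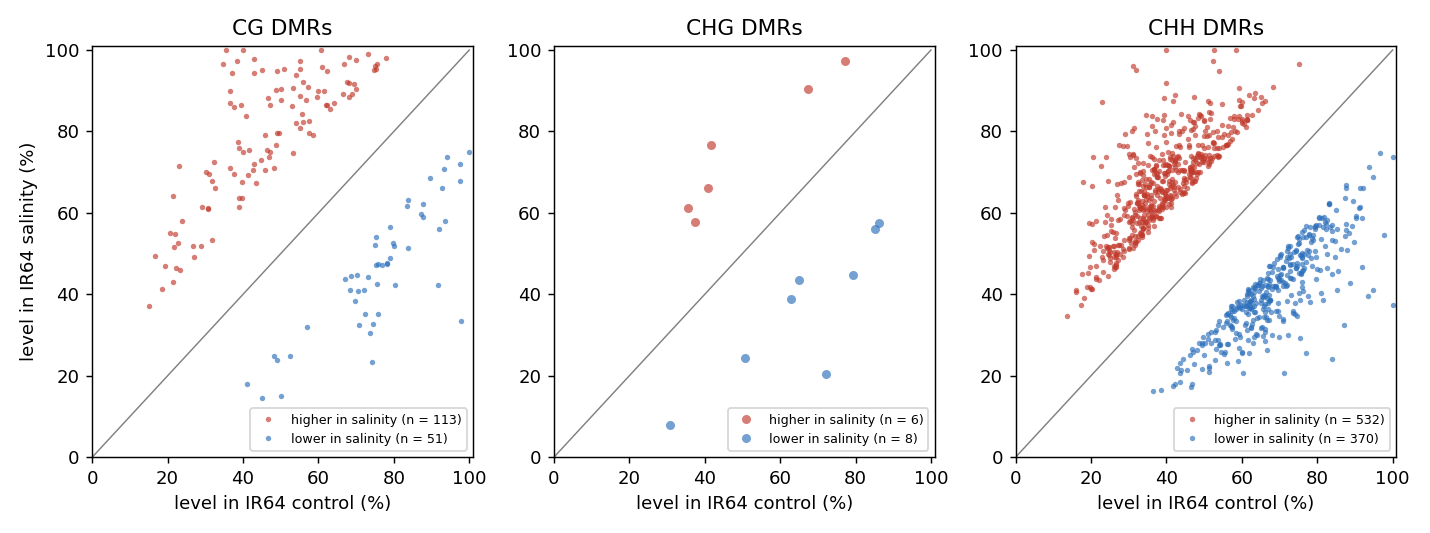
Level of each DMR in IR64 salinity (vertical axis, %) against its level in IR64 control (horizontal axis, %), with a panel for each context. Points are bins, red where higher and blue where lower in IR64 salinity, and the line marks equal levels. The 113 CG DMRs above the line start at 15.2% to 77.9% in IR64 control, while the 51 below it start at 41.2% to 100%.

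The starting level differed between contexts. Of the 113 CG DMRs that were higher, 109 had a level of 20% to 80% in IR64 control, and of the 51 that were lower, 32 did and 19 started at 80% or more, while 15.5% of all tested CG bins had a level of 20% to 80% there. Of the CHH DMRs, 519 of 532 higher ones (97.6%) and 307 of 370 lower ones (83.0%) started between 20% and 80%, against 90.8% of all tested CHH bins. The control level is itself part of the contrast, and a bin near 0% or 100% in it can differ in 1 direction only. The bins were therefore also placed by their level in IR64 desiccation, which entered neither side of the comparison. This does not remove the limit near 0% and 100%, where a bin has less room to differ by 20 points. By that level, 0.260% of CG bins at 20% to 40% were DMRs, 0.160% at 40% to 60%, 0.0537% at 60% to 80% and 0.00658% at 80% to 100%. Highly methylated CG bins, which were 669064 of the tested bins, were thus the least often called, and their interval (0.0049% to 0.00883%) did not overlap those of the classes from 20% to 80%.

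In CHH the bins of low level were the least often called. By the level in IR64 desiccation, 0.0402% of CHH bins at 0% to 20% were DMRs (95% Wilson interval 0.0184 to 0.0877), 0.220% at 20% to 40%, 0.685% at 40% to 60% (0.626 to 0.749), 0.805% at 60% to 80% and 0.681% at 80% to 100%. Among bins with 100 to 200 reads (200 excluded) in the library with fewer, the shares at 20% to 40% and at 40% to 60% were 0.547% and 1.46%. The step was also present at like read numbers, but the classes were not matched for the number of cytosines. By the level in IR64 desiccation, CHH DMRs were thus least frequent at low CHH level, and CG DMRs at high CG level. The rule of 20 points itself favours this order. By the level in IR64 control, 0 of 15319 CHH bins at 0% to 20% were called lower. Of 689551 CG bins at 80% to 100% there, 0 were called higher.

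**Figure D2:**
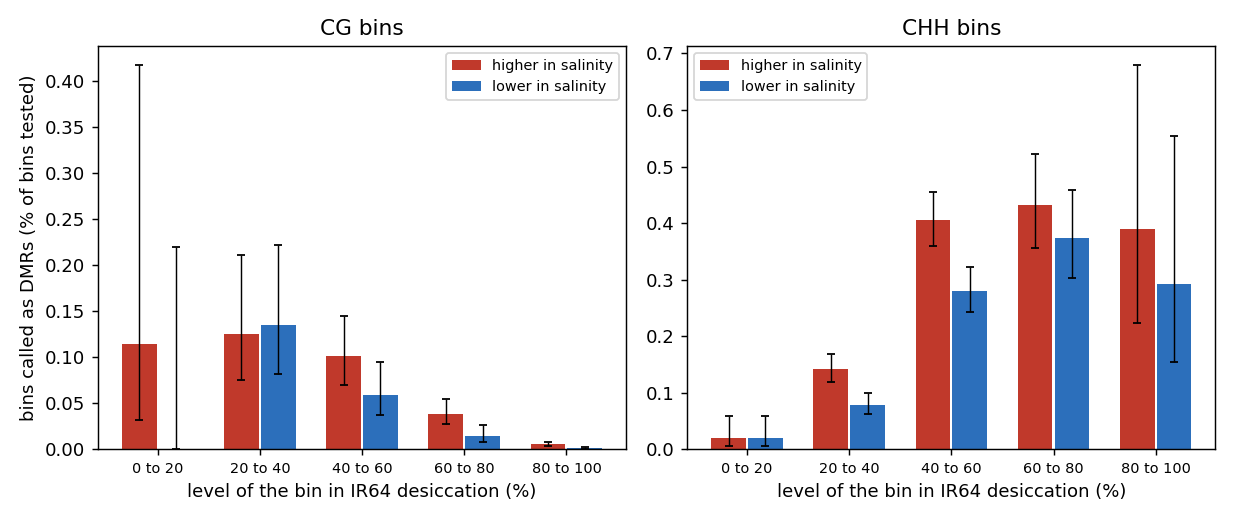
Percent of tested bins that were DMRs (vertical axis) by the level of the bin in IR64 desiccation (horizontal axis, %), for CG and CHH. Red bars are bins higher and blue bars bins lower in IR64 salinity, and error bars are 95% Wilson intervals that cover counting error only. CG shares fall to 0.00553% higher and 0.00105% lower at 80% to 100%, while CHH shares reach 0.431% higher and 0.373% lower at 60% to 80%.

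CG DMRs were spread over the chromosomes with little relation to the density of methylation around them. The 1 Mb windows of the genome were ranked by their number of CHG mCs in the N22 and Pokkali control libraries, which entered no call and which serve as a guide to pericentromeric, transposon-rich sequence. CG bins were DMRs at 0.0206% in the windows of low density, 0.0207% in the middle ones and 0.0193% in the windows of high density, with intervals that overlapped. By distance from the nearest chromosome end the CG shares ran between 0.0187% and 0.0219%. The lowest and highest chromosomes had 0.0115% on chromosome 2 (9 DMRs; 95% Wilson interval 0.00605 to 0.0218) and 0.0363% on chromosome 10 (19 DMRs; 0.0232 to 0.0567). On chromosome 5 all 17 CG DMRs were higher, and on chromosomes 11 and 12 the directions were even (7 higher and 7 lower, 8 higher and 8 lower).

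CHH DMRs lay more often outside dense methylation. They were 0.507% of CHH bins in the windows of low CHG mC density (95% Wilson interval 0.460 to 0.558), 0.426% in the middle ones and 0.292% in the windows of high density (0.252 to 0.338). The share was 0.467% within 2 Mb of a chromosome end and 0.356% at 10 Mb or more from it. Bins with 100 to 200 reads had the same order by density, at 1.14% (1.003 to 1.29), 0.941% and 0.785% (0.644 to 0.956). At these read numbers the shares by distance were 1.07% and 0.919%, with intervals that overlapped. The CHH shares of the chromosomes lay between 0.362% on chromosome 6 and 0.469% on chromosome 9, with intervals that all overlapped.

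The shares also differed by the contexts found in a bin of 100 bp. CHH bins in which IR64 desiccation listed CHH mCs only were DMRs at 0.674% (95% Wilson interval 0.558 to 0.813) and those with CG and CHH mCs at 0.648%. Those with CHG and CHH mCs but no CG mCs were DMRs at 0.566% (0.475 to 0.675), against 0.324% (0.296 to 0.355) of those with mCs of all 3 contexts. Among these classes, those with CHG mCs were thus called less often than those without. The interval for CHG and CHH overlapped those of the classes without CHG mCs. Among bins with 100 to 200 reads the shares were 1.52% (1.17 to 1.98) for CHH only and 1.43% (1.19 to 1.73) for CG and CHH. They were 1.23% (0.977 to 1.55) for CHG and CHH, and 0.786% (0.697 to 0.885) for all 3 contexts. CG bins with CG and CHG mCs but no CHH mCs were DMRs at 0.0286% (0.0219 to 0.0373), against 0.0153% (0.0119 to 0.0197) of CG bins with all 3. Among CG bins with 100 to 200 reads the shares were 0.0623% (0.0415 to 0.0935) and 0.0281% (0.0186 to 0.0426), with intervals that overlapped. CG bins with CG mCs only, the state of methylated gene bodies in plants, were DMRs at 0.0216% (0.0158 to 0.0293, 40 DMRs), an interval that overlaps both of those for all tested bins. Whether the bins lie in genes or transposons was not analysed here.

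**Figure D3:**
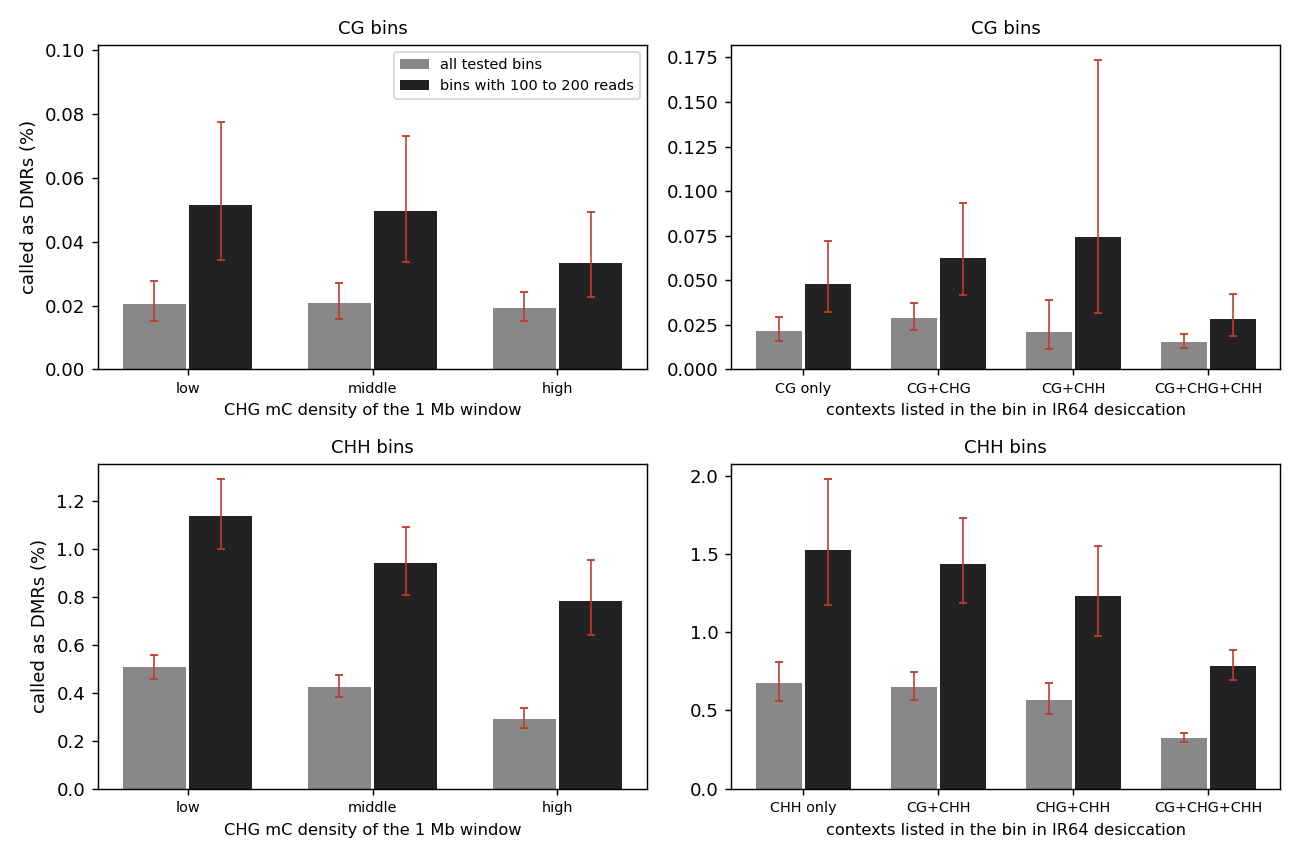
Percent of CG bins (top) and CHH bins (bottom) that were DMRs (vertical axes), by the CHG mC density of the surrounding 1 Mb window (left) and by the contexts listed in the bin in IR64 desiccation (right). Grey bars are all tested bins, black bars are bins with 100 to 200 reads in the library with fewer, and error bars are 95% Wilson intervals. CHH shares fall with density, at 0.507%, 0.426% and 0.292% of all tested bins, and classes of under 10000 tested bins are left out.

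Most DMRs stood alone. Joining DMRs less than 1000 bp apart gave 1052 groups, of which 1028 were single bins, 22 held 2 bins and 2 held 3 bins. Only 50 of the 1078 bins (4.64%) were thus in a group. The bins of a group had the same direction in 23 of the 24 groups, 12 higher and 11 lower. Among 1 Mb windows, 116 of 379 held a CG DMR and 10 held 3 or more, and the highest number was 5, all higher, between 5 and 6 Mb of chromosome 10. CHH DMRs were in 307 of 379 windows with at most 10 in a window, between 21 and 22 Mb of chromosome 9 (6 higher, 4 lower).

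Next to a CG DMR the difference carried on into the nearby bins, and it was smaller with distance. Of the tested CG bins adjacent to a CG DMR, 18 of 191 were DMRs in the same direction (9.42%, 95% Wilson interval 6.04 to 14.4). Of all CG bins, 0.02% were DMRs in either direction. At a distance of 200 bp it was 4 of 161 (2.48%, 0.970 to 6.21), at 300 bp 2 of 137 (1.46%, 0.401 to 5.17), at 400 to 500 bp 2 of 230 (0.870%, 0.239 to 3.11), and from 600 to 1000 bp it was 0 of 534, which allows a share of up to 0.562%. No CG DMR had one of the opposite direction within 10000 bp. Higher and lower CG DMRs were only 0.0138% and 0.00623% of all tested CG bins, so hardly any would be met at those shares. The level of the nearby bins, called or not, differed towards the direction of the DMR by a mean of 14.0 points at 100 bp, 7.02 points at 200 bp, 2.27 points at 300 bp, 2.33 points at 400 to 500 bp and 0.880 points from 600 to 1000 bp.

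CHH DMRs extended less. Of the adjacent CHH bins, 14 of 953 were DMRs in the same direction (1.47%, 0.877 to 2.45). Of all CHH bins, 0.247% were DMRs that were higher and 0.171% DMRs that were lower (0.418% in either direction). The mean difference towards the call was 5.01 points at 100 bp, 1.95 points at 200 bp and -0.765 points at 300 bp. At 400 to 500 bp, 0 of 509 CHH bins were DMRs in the same direction and 2 in the opposite one. Each pair of neighbours was counted from both ends, and adjacent bins can share read pairs. None of the 21 tested CHG bins adjacent to a CHG DMR was a DMR (a count of 0 allows a share of up to 14.3%).

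**Figure D4:**
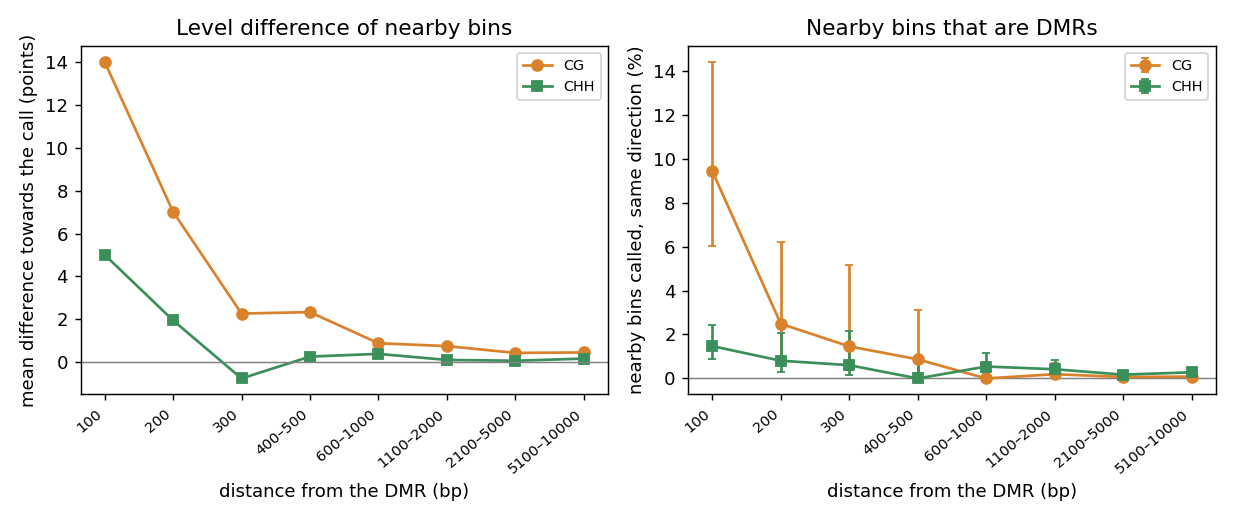
Left, mean difference between IR64 salinity and IR64 control in bins near a DMR, signed towards the direction of that DMR (points), by distance (bp). Right, percent of the nearby bins that were DMRs of the same direction, with 95% Wilson intervals. The CG mean (circles) is 14.0 points at 100 bp and 0.880 points at 600 to 1000 bp, and the CHH mean (squares) is 5.01 points at 100 bp.

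One of the 2 groups with 3 bins was made of adjacent CG DMRs on chromosome 10 (5265401 to 5265700, MSU release 7 coordinates). Levels were 73.8% (1522 of 2061 reads), 67.3% (1421 of 2113) and 54.9% (877 of 1597) in IR64 salinity, against 46.8% (454 of 970), 43.4% (381 of 878) and 21.9% (160 of 729) in IR64 control. At 94 of its 96 shared CG cytosines the level was higher in IR64 salinity. CHG moved the same way in each bin, with 36.7%, 32.4% and 27.9% in IR64 salinity against 22.7%, 22.3% and 15.3% in IR64 control. The CG bin just before them was at 90.7% in both libraries, and the bin just after was at 80.9% in IR64 salinity against 82.9% in IR64 control. Depth changed along the stretch. The bin just after had 68 and 76 reads on 7 cytosines, against 1597 and 729 on 28 in the third DMR. The bin 300 bp before the group had 1102 and 808 reads on 4 cytosines. The strands of a CG site also differed at places, as at 5265454 (plus strand 96.2%, minus strand 61.4% in IR64 salinity). IR64 desiccation was at 67.1%, 64.5% and 49.5% in the 3 CG bins. The reads were 2.12 to 2.41 times as many in IR64 salinity, with up to 123 reads on a cytosine there and up to 43 in IR64 control. With reads drawn at random down to the smaller depth at each cytosine (thinning), the differences were 22.1, 19.5 and 30.7 points, and the middle bin was not called. Without cytosines above the 99th percentile of depth they were 28.1, 13.2 and 34.2 points, and again the middle bin was not called.

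The second group held 3 CG DMRs within 500 bp on chromosome 12 (4677501 to 4678000) and was lower. Levels were 54.0% (136 of 252 reads), 24.9% (211 of 848) and 66.1% (121 of 183) in IR64 salinity, against 75.2% (173 of 230), 52.4% (282 of 538) and 92.9% (170 of 183) in IR64 control. All 38 shared CG cytosines of these 3 bins were lower in IR64 salinity. The group also held 2 tested CG bins that were not DMRs, at 63.3% and 91.8% in IR64 salinity against 73.4% and 91.7% in IR64 control. After thinning, the difference of the first DMR was -19.1 points and it was not called. The other libraries were also compared at these bins. IR64 desiccation, with 46.8%, 31.2% and 52.1%, was below IR64 control as well, and Pokkali salinity was at 60%, 47.5% and 61.5%, against 86.5%, 75.4% and 77.4% in Pokkali control. N22 desiccation was at 55.3%, 35.1% and 54.5%, against 62.5%, 36.3% and 57.6% in N22 control, so the 3 control libraries did not share a level there.

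**Figure D5:**
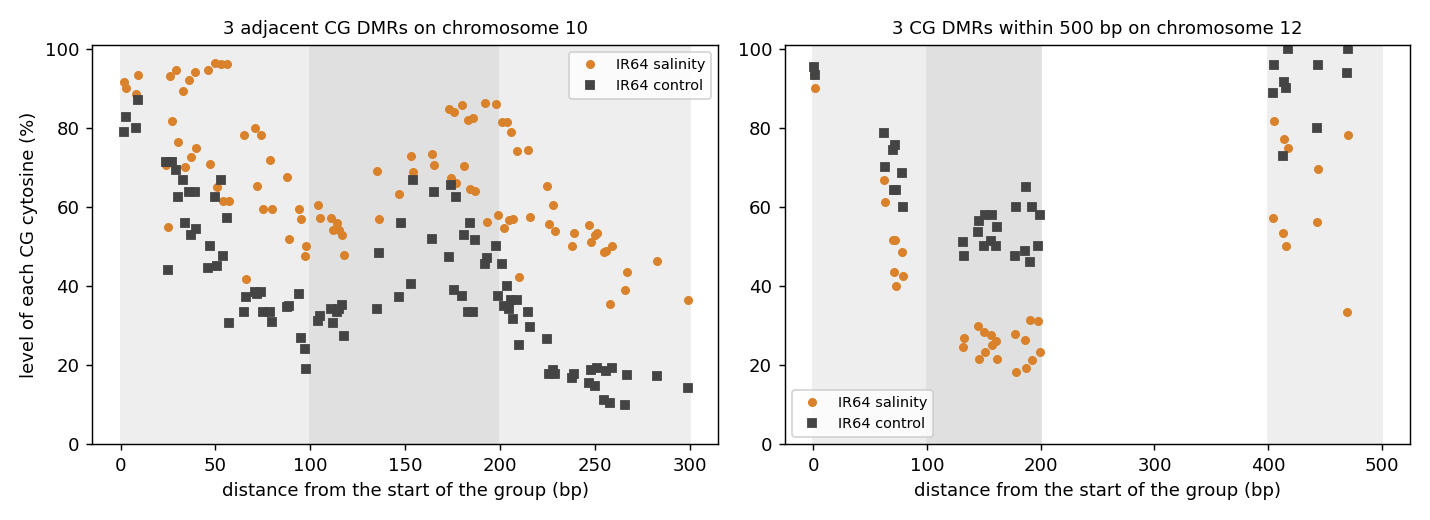
Level of each shared CG cytosine (vertical axis, %) inside the DMRs of the 2 largest groups, by distance from the start of the group (bp), in IR64 salinity (orange circles) and IR64 control (dark squares). Grey bands are the DMRs, and the bins between them are left out. On chromosome 10 the circles lie above the squares at 94 of 96 cytosines, and on chromosome 12 they lie below at all 38 cytosines of the 3 DMRs.

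The only other group with 3 DMRs was a pair of bins on chromosome 11 (10857801 to 10858000). The first bin was a DMR in CG and CHG and the second in CG, at 71.9% in IR64 salinity against 97.4% in IR64 control. The first was at 20.6% in CHG (22 of 107 reads) and 23.5% in CG in IR64 salinity, against 72.2% in CHG (26 of 36 reads) and 74.3% in CG in IR64 control. This was the largest CHG difference (-51.7 points, adjusted p 0.00139 by Fisher's exact test with Benjamini-Hochberg adjustment). It rested on 4 CHG cytosines with 5 to 14 reads each in IR64 control, against 19 to 36 in IR64 salinity, and after thinning it was -58.3 points and not called. Levels in CHG were 16.9% in IR64 desiccation, 40.4% in Pokkali salinity, 63.6% in Pokkali control, 24.4% in N22 desiccation and 16.1% in N22 control. The other bin that was a DMR in both contexts, on chromosome 10 (9935201 to 9935300), was higher, with 76.6% in CHG and 90.1% in CG in IR64 salinity, against 41.6% in CHG and 48.6% in CG in IR64 control.

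Among CG bins with at least 50 reads in each library, the largest difference was on chromosome 10 (8591901 to 8592000). Its 9 minus-strand cytosines had 57 of 59 methylated reads in IR64 salinity (96.6%) and 27 of 78 in IR64 control (34.6%), and the level was higher in IR64 salinity at all 9. No cytosine had more than 9 reads in IR64 salinity or 13 in IR64 control, so the bin can rest on few DNA fragments. The next CG bins that were higher were on chromosome 9 at 21427601 (90% in IR64 salinity, 36.5% in IR64 control, plus strand only) and at 186301 (95.2% in IR64 salinity, 45.1% in IR64 control, minus strand only). The bin adjacent to 21427601 was also a DMR, at 94.3% in IR64 salinity against 37.0% in IR64 control. IR64 desiccation was at 86.2%, 84.8% and 89.8% in these 3 bins.

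Under the same limit of 50 reads in each library, the CG bins that were lower by the most were on chromosome 3 at 18173401 (30.6% in IR64 salinity, 73.7% in IR64 control), chromosome 1 at 18687301 (35.2% in IR64 salinity, 75.9% in IR64 control) and chromosome 10 at 11227201 (32.5% in IR64 salinity, 70.8% in IR64 control). On chromosome 1 both strands of 2 CG sites fell, with 7 of 30 and 10 of 34 methylated reads on the plus strand in IR64 salinity, against 11 of 15 and 13 of 18 in IR64 control. The minus strand fell less, with 9 of 15 and 6 of 12 in IR64 salinity against 11 of 14 and 9 of 11 in IR64 control. The CG bins on either side were not DMRs, at 86.0% in IR64 salinity against 95.9% in IR64 control before it, and 96.9% in IR64 salinity against 100% in IR64 control after it. The neighbour of the chromosome 10 bin was a DMR too, at 47.2% in IR64 salinity against 76.9% in IR64 control. After thinning, the differences on chromosomes 3, 1 and 10 were -43.9, -25.9 and -35.1 points and none of these 3 bins was called. The chromosome 1 bin was also not called without depths above the 99th percentile, nor the chromosome 10 bin after re-calling of mCs at an error rate of 1%.

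Among CHH bins with at least 50 reads in each library, the largest differences upwards were on chromosome 8 at 23294301 (84.0% in IR64 salinity, 34.6% in IR64 control), chromosome 3 at 5654301 (80.8% in IR64 salinity, 31.5% in IR64 control) and chromosome 3 at 24486201 (76.8% in IR64 salinity, 27.5% in IR64 control). The first rested on 11 cytosines of the plus strand, with 6 to 8 reads each in IR64 salinity and 5 to 10 in IR64 control. Downwards they were on chromosome 4 at 30614701 (30% in IR64 salinity, 72.2% in IR64 control), chromosome 9 at 16711101 (40.3% in IR64 salinity, 80.9% in IR64 control) and chromosome 5 at 5819401 (34.7% in IR64 salinity, 74.5% in IR64 control). At the chromosome 4 bin CG and CHG were also lower, with 47.1% and 38.5% in IR64 salinity against 74.3% and 60.7% in IR64 control. At the chromosome 5 bin CG was 86.4% in both libraries. After thinning, the chromosome 4 and chromosome 9 bins differed by -42 and -35.1 points and were not called, and with bins shifted by 50 bp the chromosome 9 difference was -14.2 points.

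The 14 CHG DMRs lay on 8 chromosomes. The 6 that were higher ranged from 57.8% to 97.3% in IR64 salinity and from 35.5% to 77.2% in IR64 control. The largest of them was the chromosome 10 bin at 9935201, followed by chromosome 2 at 273601 (61.3% in IR64 salinity, 35.5% in IR64 control), where CG was at 96.2% in IR64 salinity against 93.9% in IR64 control. The 8 that were lower ranged from 7.84% to 57.5% in IR64 salinity and from 30.7% to 86.3% in IR64 control. After the chromosome 11 bin, the largest was on chromosome 4 at 10033301, with 44.8% in IR64 salinity against 79.2% in IR64 control. All 14 had cytosines on both strands, and the summed level of each strand moved the same way, which a call on their sum favours. After thinning 6 of the 14 were called, and without depths above the 99th percentile 7 of the 12 that could be tested were.

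CHG levels followed CG in the CG DMRs. CHG was tested in 40 of the 113 CG DMRs that were higher and was higher in 38 (95%, with a 95% Wilson interval 83.5 to 98.6), with medians of 52.6% in IR64 salinity against 36.2% in IR64 control. It was lower in all 13 of the lower CG DMRs where it was tested. Over all bins tested in both contexts, CHG was higher in 53.0% and lower in 46.5%. In CHH DMRs the CHG level had the same sign in 117 of 150 higher bins (78.0%, 70.7 to 83.9) and 63 of 86 lower ones (73.3%, 63.1 to 81.5). The CG level did so in 118 of 204 (57.8%, 50.98 to 64.4) and 74 of 141 (52.5%, 44.3 to 60.5), against 52.2% and 46.7% of all bins tested in both. The contexts of a bin can be covered by the same reads, so these are not separate measurements.

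The strands gave a second look at the calls, since the cytosines of each strand are read from different DNA strands. When bins were tested on plus-strand cytosines alone, 1006 CHH bins (0.774%) were DMRs. Of the 600 that were higher, 394 could be tested on the minus strand, and 211 of these were higher there (53.6%, 95% Wilson interval 48.6 to 58.4), with a median difference of 0.772 points. Over all CHH bins tested on both strands, 52.4% were higher on the minus strand. Of the 406 that were lower, the minus strand was lower in 128 of 291 (44.0%, 38.4 to 49.7), against 47.2% of all bins. On the minus strand 0.74% of CHH bins were DMRs, and the plus strand had the same sign in 50.8% of the higher ones (45.7 to 56.0) and 51.2% of the lower ones (45.4 to 57.0), against 52.4% and 47.3% of all bins. All 4 intervals included the share in all bins.

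In CHG too few bins were called for this check, 5 on the plus strand alone (0.00184%) and 1 on the minus strand alone (0.000372%). In CG, 135 bins (0.0292%) were DMRs on the plus strand alone. The minus strand had the same sign in 45 of 70 higher ones (64.3%, 52.6 to 74.5) and 22 of 34 lower ones (64.7%, 47.9 to 78.5), with medians of 3.29 and -3.95 points, against median differences of 32.2 and -32.3 points on the strand called. Over all CG bins the shares were 51.7% and 46.4%. On the minus strand 0.0207% were DMRs, and 31 of 49 higher ones (63.3%, 49.3 to 75.3) and 8 of 18 lower ones (44.4%, 24.6 to 66.3) had the same sign on the plus strand. Among the CG DMRs called on both strands together, 35 of the 113 higher ones (31.0%) and 9 of the 51 lower ones (17.6%) had cytosines of a single strand, against 14.8% of all tested CG bins.

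Read depth moved with some of the calls. Relative to the median ratio of the libraries, depth differed by at least 2-fold in 9 of 113 higher CG DMRs (7.96%), 8 of them deeper in IR64 salinity, and in 3 of 51 lower ones, all deeper in IR64 salinity, against 1.79% of all tested CG bins. In CHH, 18 of 532 higher DMRs (3.38%) differed so, all 18 deeper in IR64 control, and 10 of 370 lower ones, 9 of them deeper in IR64 salinity, against 2.57% of all tested CHH bins. With 1 exception, CHH levels in these bins were therefore higher in the library with fewer reads. At the smaller of the 2 depths at every cytosine, reached by drawing reads at random, 92 CG, 6 CHG and 438 CHH DMRs were found. Without cytosines above the 99th percentile of depth, 122 CG, 7 CHG and 904 CHH DMRs were found.

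The level of IR64 desiccation at the DMRs lay between those of the pair compared in all 6 sets by their medians. DMRs were picked for a large difference between IR64 salinity and IR64 control, so a level in between is favoured by the call itself. At cytosines listed in all 3 IR64 libraries, IR64 desiccation was in between in 99 of 112 higher and 32 of 51 lower CG DMRs. Among all tested CG bins it was in between in 254908 of 771946. The CHH counts were 431 of 511 and 301 of 357, against 55684 of 170589. The CHG counts were 5 of 6 and 4 of 8, against 154251 of 463410. IR64 desiccation was nearer to IR64 salinity than to IR64 control in 69 of 112 higher and 34 of 51 lower CG DMRs (61.6% and 66.7%). Among all tested CG bins the share was 48.8%. In CHG it was nearer to IR64 salinity in 6 of 6 and 6 of 8, against 48.9%, and in CHH in 228 of 511 and 174 of 357, against 49.5%. Many of these differences were thus not particular to IR64 salinity, and causes were not tested. Over cytosines listed in all 3 IR64 libraries, the higher CG DMRs had medians of 82.4% in IR64 salinity, 67.5% in IR64 desiccation and 45.8% in IR64 control (n = 112). The lower ones had 47.2% in IR64 salinity, 52.1% in IR64 desiccation and 75.9% in IR64 control (n = 51). The higher CHH DMRs had 68.6% in IR64 salinity, 52.0% in IR64 desiccation and 38.2% in IR64 control (n = 511), and the lower ones had 40.7% in IR64 salinity, 54.8% in IR64 desiccation and 69.2% in IR64 control (n = 357). The 6 higher CHG DMRs had 71.3% in IR64 salinity, 68.4% in IR64 desiccation and 41.2% in IR64 control, and the 8 lower ones had 41.3% in IR64 salinity, 52.5% in IR64 desiccation and 68.6% in IR64 control. IR64 desiccation, compared with the same control library and so not independent of the IR64 salinity comparison, gave 301 CG (0.0362%), 43 CHG (0.00815%) and 884 CHH DMRs (0.389%).

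Pokkali salinity and Pokkali control share no library with the IR64 pair, and the same bins were read in them. Pokkali gave 540 CG (0.0634%), 68 CHG (0.013%) and 5109 CHH DMRs (2.31%). The 51 lower CG DMRs of IR64 included 46 bins tested in Pokkali, of which 32 were also lower in Pokkali salinity (69.6%, 95% Wilson interval 55.2 to 80.9), against 52.4% of all bins tested in both. Of these, 10 were Pokkali DMRs in the same direction, a call made for 0.0406% of the CG bins of Pokkali. Of the CG bins tested in both cultivars, 0.0339% were lower and 0.0177% higher Pokkali DMRs. These shares are not a like background. The lower CG DMRs had a median of 9 shared cytosines, against 6 in all tested CG bins, and more reads. In IR64 the share called differed with both and with level. The bins were not matched for these, and adjacent DMRs were counted singly. Whether like bins would give fewer than 10 was not tested. The higher CG DMRs were also higher in Pokkali in 36 of 69 bins (52.2%, 40.6 to 63.5), against 46.9% of all bins, and 1 was a higher Pokkali DMR (0.0228% of the CG bins of Pokkali). Higher CHH DMRs of IR64 were higher in Pokkali in 353 of 471 bins (74.9%, 70.8 to 78.6), and lower ones were lower in 74 of 320 (23.1%, 18.8 to 28.0). All CHH bins tested in both were higher in Pokkali salinity at 69.9% and lower at 29.9%. The lower CHH DMRs of IR64 were thus lower in Pokkali less often than bins in general, and 25 of the 320 were higher Pokkali DMRs (2.24% of the CHH bins of Pokkali). Among the higher CHH DMRs of IR64, 39 of 471 were higher Pokkali DMRs. Of the CHH bins tested in both cultivars, 2.66% were higher Pokkali DMRs. The CHH DMRs and the higher CG DMRs were not matched to like bins either.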

How the data were processed

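Reads of 7 bisulphite libraries of rice seedlings, each of 1 sample, were processed by the authors with Bismark and methylKit (named in the submitters' notes) against the MSU release 7 genome, with clonal and non-unique reads removed and mCs called by a binomial test at p 0.001 and at least 5 reads. These steps are described for the control libraries, and for the stressed ones they are not given in the sources used here. The deposited tables give, per the file headers, a read count (depth, not normalized) and a methylation level in percent for each mC and strand. Lowest listed counts gave a calling error rate of 0.52% in IR64 salinity and 0.45% in IR64 control.

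The methylated reads of each mC, computed from its depth and level, were whole numbers (within 0.0051 points of the level) for 100% of mCs. Bins of 100 bp with at least 3 mCs listed in both libraries were tested per context with Fisher's exact test and Benjamini-Hochberg adjustment over all bins of the context, in place of the study's SLIM correction, with Python 3.11.15, numpy 2.4.6, scipy 1.17.1 and numba 0.67.0 (tested on simulated data). Figures were drawn with matplotlib 3.10.9. Wilson intervals cover counting error only, since reads are not independent molecules. Mean depth at shared CG cytosines was 15.3 reads in IR64 salinity and 16.9 in IR64 control. With 1 library per group, each test compares the reads of 2 libraries.

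Named bins were the 3 DMRs of largest absolute difference per context and direction with at least 50 reads in each library, all CHG DMRs, and the 2 groups of DMRs under 1000 bp apart with the most DMRs, with ties broken by the number of bins. The chromosome 11 group of 3 DMRs, and neighbours of named bins, were added after their values were seen. The comparison, the lists and the tests were chosen with earlier results of these data known. The reference table at hand was of another assembly, so no sequence, gene or transposon was assigned, and the part of the rule that names genes and loci was not applied. Alternatives covered depth, number of cytosines, difference, adjustment, bin offset, strand, extreme depth, calling rate, centring, thinning and counting of reads.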

Additional observations from a re-analysis of the deposited data

Results flagged for a closer look

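The CG level differed in opposite directions between the salinity and control libraries of IR64 and of Pokkali. Over the CG cytosines shared within each pair it differed by 0.474 points between IR64 salinity and IR64 control and by -0.354 points between Pokkali salinity and Pokkali control. Of the CG DMRs, 68.9% were higher in IR64 salinity than in IR64 control, and 35.9% were higher in Pokkali salinity than in Pokkali control. As a mean of site levels the differences were 0.379 points in IR64 and -0.231 points in Pokkali. IR64 desiccation differed from IR64 control by -0.201 points pooled and by 0.259 points as a mean of site levels. The sign of so small a difference can thus depend on the measure. Each cultivar had 1 library per condition, so the difference between the cultivars was not tested.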

How the results depend on the processing

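Without replicate libraries no library could be left out. No paired analysis was possible because each group had 1 library and the replicate numbers only name it. Against 164 CG, 14 CHG and 902 CHH DMRs, the counts in CG, CHG and CHH were 77, 3 and 281 at a difference of 30 points, 287, 43 and 1938 at an adjusted p of 0.05, 44, 2 and 103 with Bonferroni adjustment, 92, 6 and 438 with reads thinned to the smaller depth at each cytosine, and 0, 0 and 0 with reads divided by the number of cytosines. A difference of 10 points gave 1446 CHH DMRs, and a minimum depth of 10 reads gave 105 CG and 600 CHH DMRs. The plus strand alone gave 5 CHG DMRs, and the minus strand alone 95 CG and 1 CHG. Without depths above the 99th percentile there were 7 CHG DMRs, and with mCs re-called at an error rate of 1% there were 9. The other alternatives (at least 5 shared cytosines, bins shifted by 50 bp, centring) stayed within 1.5 times of each count. The share of DMRs that were higher, 68.9% in CG and 59.0% in CHH, was in CG 60% at a minimum depth of 10 reads, 67.1% under centring, 79.3% after thinning and 79.5% with Bonferroni adjustment, and in CHH 53.8% under centring and 69.9% with Bonferroni adjustment.

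The CG level difference of 0.474 points was 0.361 at a minimum depth of 10, 0.515 on the plus strand, 0.433 on the minus strand, 0.522 without extreme depths, 0.459 after re-calling and 0.379 as a mean of site levels. The CHG difference of 0.126 points was -0.0807, 0.0034, 0.250, 0.495, 0.180 and 0.524 in the same settings. The CHH difference of 1.09 points was 0.906 at a minimum depth of 10, 1.20 without extreme depths, 0.971 after re-calling and 0.683 as a mean of site levels. For the 32 named bins, the alternatives gave 415 values, of which 272 passed the call, 143 did not and 0 changed sign. Causes were not tested. The median tested CG bin held 71 reads in IR64 salinity against 80 in IR64 control, and the share of CG bins called increased with the number of reads.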

Other observations

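Some bins held at least 3 mCs of a context in one IR64 library and none in the other, while both of their neighbours held mCs in both libraries. In CG, 6409 such bins were listed in IR64 salinity only and 4053 in IR64 control only. In CHG there were 6569 in IR64 salinity only and 4782 in IR64 control only, and in CHH 14095 in IR64 salinity only and 17868 in IR64 control only. IR64 desiccation listed at least 3 mCs in 75.7% of the CG bins found in IR64 salinity only and in 62.9% of those found in IR64 control only, and in CHH in 37.2% and 35.6%. In each context the larger count was in the library that listed more mCs. IR64 salinity and IR64 control listed 7422144 and 6932687 CG, 4434464 and 4301171 CHG, and 3528951 and 3610276 CHH mCs. The share among all bins with such neighbours was not computed, so the counts are not read as gains or losses. An unlisted cytosine can be unmethylated or read fewer than 5 times, and these cannot be told apart here.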
